A study of Mus musculus with 31 samples.

Results

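The 8 genes described here, Ms4a1, Cd79a, Cd79b, Pax5, Cd22, Cr2, Blk and Fcmr, encode surface receptors, signalling proteins and a transcription factor that identify B cells. They were chosen by symbol among the 54456 genes listed for whole tumours, and all 8 were found. RNA was sequenced from tumours of AB1-mCherry, a murine mesothelioma line carrying a red fluorescent marker, taken 10 days after inoculation of untreated female BALB/c mice of 12 weeks. The subcutaneous (n = 5), peritoneal (n = 5) and pleural (n = 6) groups of whole tumours share line, strain, sex, age and day and differ in the site of growth. Sorted cancer cells, mCherry-positive and without the leukocyte marker CD45, were profiled as well (n = 5 per site). All tumours came from 1 cell line, each number is that of the mouse named in the labels, and a whole tumour holds host cells beside cancer cells.

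B cells recognise antigen through a membrane antibody held in a complex with the CD79A and CD79B chains, which pass the signal to kinases of the Src family such as BLK. CD22 dampens this signal, the complement receptor CR2 (CD21) strengthens it, and FCMR binds secreted IgM. PAX5 is the transcription factor that holds cells in the B lineage, and MS4A1 (CD20) is a surface protein of B cells that is lost as they become plasma cells. CR2 is also carried by follicular dendritic cells, the stromal cells of B cell follicles.

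Promoters of 4 members are shown, and the capital letters show exact matches to chosen motifs of B lineage factors. The 8 genes varied together over the tumours, as given further on, and whether the motifs bear on that was not tested. RefSeq's table of GRCm38.p6 held 5 of the 8 members, Pax5 being the other one, and each sequence covers the 250 bases before the start of the gene, 5′ to 3′ on the strand of the gene. Capitals mark a match on either strand to CAGGTG, an E-box of the kind bound by E proteins, or to the EBF1 motif.
Cd79a, chr7:24897247-24897496, plus strand: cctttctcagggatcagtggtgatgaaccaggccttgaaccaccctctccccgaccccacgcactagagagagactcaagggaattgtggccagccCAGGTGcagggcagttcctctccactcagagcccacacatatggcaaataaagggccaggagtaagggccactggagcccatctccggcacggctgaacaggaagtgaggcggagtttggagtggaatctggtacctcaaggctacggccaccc
Cd22, chr7:30879029-30879278, minus strand: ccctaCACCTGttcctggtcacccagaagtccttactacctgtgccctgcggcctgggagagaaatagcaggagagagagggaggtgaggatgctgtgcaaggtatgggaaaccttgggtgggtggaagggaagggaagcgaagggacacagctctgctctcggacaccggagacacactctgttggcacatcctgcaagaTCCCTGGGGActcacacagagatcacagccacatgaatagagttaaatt
Cr2, chr1:195176720-195176969, minus strand: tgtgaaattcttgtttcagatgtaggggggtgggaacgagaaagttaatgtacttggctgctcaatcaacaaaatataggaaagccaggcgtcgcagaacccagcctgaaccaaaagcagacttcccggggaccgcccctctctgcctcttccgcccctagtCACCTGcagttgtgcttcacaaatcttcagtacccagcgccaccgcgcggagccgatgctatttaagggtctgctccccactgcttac
Fcmr, chr1:130865527-130865776, plus strand: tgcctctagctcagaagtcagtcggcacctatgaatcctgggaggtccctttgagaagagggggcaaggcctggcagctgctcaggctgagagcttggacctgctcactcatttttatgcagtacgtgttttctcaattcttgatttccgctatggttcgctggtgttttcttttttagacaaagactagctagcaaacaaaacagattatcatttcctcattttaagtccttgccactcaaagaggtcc
The E-box lay in the promoters of Cd79a, Cd22 and Cr2, in the last 2 as CACCTG, and 17.2% of the 32841 promoters of the table hold it in a window of the same length. The EBF1 motif occurred in Cd22 alone of the 5, and 0.78% of all promoters hold it. No capitals stand in Fcmr, and Pax5 had no match either. The octamer ATGCAAAT and the PU.1 form GAGGAAGT, held by 1.6% and 2.44% of all promoters, were in none of the 5 windows. No match overlapped another. These are matches of letters only, and the build differs from the GRCm39 used by the authors.

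All 8 genes had their lowest site mean in subcutaneous tumours and their highest in peritoneal tumours, with pleural tumours between. Values are in TPM (transcripts per 1000000, a level corrected for transcript length), and the sequencing depth is unknown. Medians did not all keep this order. That of Cd22 was highest in subcutaneous tumours, at 3.51 TPM against 2.63 TPM in peritoneal and 2.52 TPM in pleural tumours. Summed over the 8 genes, subcutaneous tumours held 13.0 to 17.3 TPM (median 14.9), peritoneal tumours 18.8 to 144 TPM (median 28.1) and pleural tumours 15.7 to 83.0 TPM (median 28.4). Cd79a alone gave 7.18 to 8.68 TPM in subcutaneous tumours. Sorted cancer cells held 8.70 to 12.9 TPM of it, so the sums may include signal from outside B cells. Peritoneal tumour 7 and pleural tumour 2 stood apart with sums of 144 and 83.0 TPM, so results are given with and without them. The other peritoneal tumours reached at most 47.3 TPM and the other pleural tumours at most 33.9 TPM. In bulk tissue, fewer B cells and less RNA per B cell cannot be told apart.

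**Figure D1:**
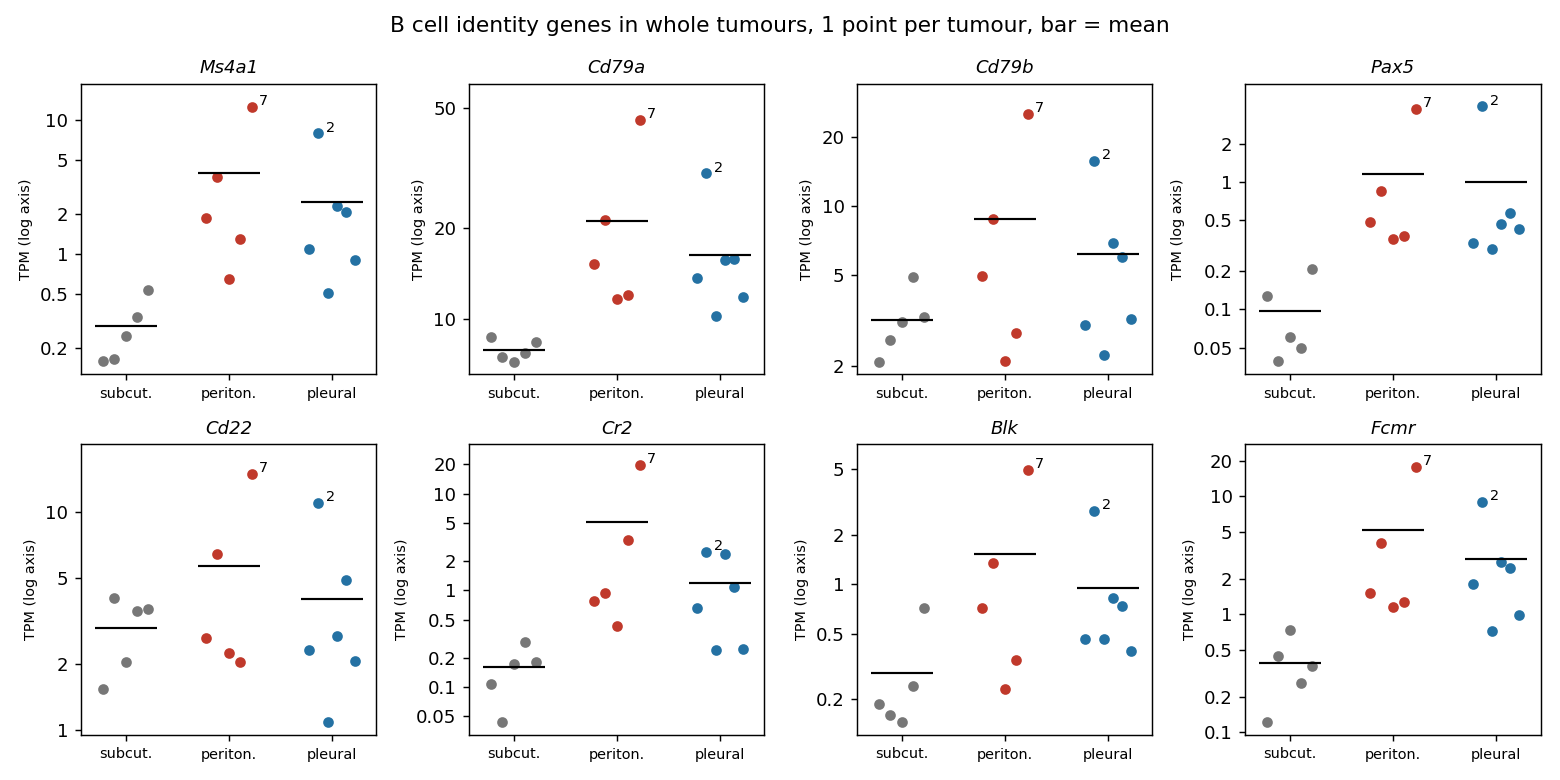
Level of each B cell identity gene in TPM (log axis, its range set for each gene) in 16 whole tumours by site; each point is 1 tumour, bars are site means, and the numbers mark peritoneal tumour 7 and pleural tumour 2. For Cd79a and Pax5 every peritoneal and pleural tumour lies above every subcutaneous one, while Cd22 and Cd79b overlap between sites.

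Fold changes below are differences of mean log2(TPM + 1) with their standard error (SE), tested with limma over 15054 genes that reached 1 TPM in at least 5 whole tumours, and a gene was called at a Benjamini-Hochberg adjusted p below 0.05. The added 1 TPM understates the change of low genes. Of the 8 members 6 were tested. Pax5 and Blk did not reach that level, and their fold changes come from a fit of all 36382 genes with a value above 0. In peritoneal against subcutaneous tumours 1 of the 6 tested members was called, Cd79a, which was higher, and 4 had an unadjusted p below 0.05. In that comparison 12.2% of all tested genes were called, 8.52% as higher. In pleural against subcutaneous tumours 0 of 6 members were called by limma, 3 had an unadjusted p below 0.05, and 12.8% of all tested genes were called, 9.4% as higher. In pleural against peritoneal tumours 0 of 6 were called, 0 had an unadjusted p below 0.05, and 0.0531% of all genes were called. The median fold change of the 6 was 1.33 for peritoneal and 0.83 for pleural against subcutaneous tumours, beside 0.07 over all tested genes in each comparison. Ms4a1, Cr2 and Fcmr stayed below 1 TPM in every subcutaneous tumour. They passed the filter only through the other sites, where they were higher, which favours a high median of the 6. Peritoneal and subcutaneous tumours did not overlap for 5 of the 8 members, Ms4a1, Cd79a, Pax5, Cr2 and Fcmr. That held in this direction for 4.52% of the genes of the fit without a filter. Pleural and subcutaneous tumours did not overlap for Cd79a and Pax5, as for 2.85% of all genes of that fit.

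Among the surface and receptor genes, Ms4a1 had one of the widest differences between sites. It measured 0.159, 0.166, 0.246, 0.341 and 0.541 TPM in subcutaneous tumours 1 to 5, and 1.86, 3.74, 0.653, 1.30 and 12.4 TPM in peritoneal tumours 1, 2, 3, 4 and 7. Pleural tumours ranged from 0.511 TPM through a median of 1.58 to 7.92 TPM. Every peritoneal tumour lay above every subcutaneous one, and of the 6 pleural tumours only tumour 3 lay below the highest subcutaneous value. The peritoneal mean of 4.00±4.86 TPM (SD, n = 5) was 13.8 times the subcutaneous mean of 0.291±0.158 TPM (n = 5), and 6.49 times without peritoneal tumour 7. The fold change of Ms4a1 was 1.53 (SE 0.50, adjusted p = 0.0587) for peritoneal and 1.15 (SE 0.48, adjusted p = 0.120) for pleural against subcutaneous tumours, neither past the threshold. When peritoneal tumour 7 and pleural tumour 2 were left out these were 1.06 (adjusted p = 0.0307) and 0.82 (adjusted p = 0.0768), so Ms4a1 was then called in peritoneal tumours.

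Cd79a, which encodes a signalling chain of the receptor complex, was the member with the highest level at every site and the only one called. Its values were 8.68, 7.46, 7.18, 7.69 and 8.40 TPM in subcutaneous tumours 1 to 5, a narrow range. Peritoneal tumours 1, 2, 3, 4 and 7 held 15.2, 21.2, 11.7, 11.9 and 45.6 TPM, and pleural tumours 10.2 to 30.3 TPM with a median of 14.6 TPM. No peritoneal or pleural tumour reached down to the subcutaneous range. Cd79a rose from 7.88±0.633 TPM (n = 5) to 21.1±14.2 TPM (n = 5) in peritoneal tumours, with a fold change of 1.13 (SE 0.31, adjusted p = 0.0305). The call was lost when any one of subcutaneous tumours 2, 3, 4 and 5 or peritoneal tumour 2 was left out, with adjusted p = 0.0704 without the last. The pleural mean of 16.2±7.21 TPM (n = 6) gave 0.87 (SE 0.30, adjusted p = 0.0653). Without peritoneal tumour 7 and pleural tumour 2 Cd79a was called in both, at 0.81 (adjusted p = 0.00965) and 0.68 (adjusted p = 0.0216), and leaving out only peritoneal tumour 7 or only pleural tumour 3 also brought a pleural call.

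Cd79b, the partner chain, did not separate the sites. Subcutaneous tumours held 2.09, 2.59, 3.12, 4.89 and 3.26 TPM, in the order 1 to 5, and peritoneal tumours 4.97, 8.80, 2.11, 2.79 and 25.2 TPM in the order 1, 2, 3, 4 and 7. Pleural tumours ranged from 2.23 to 15.8 TPM with a median of 4.59 TPM. Both groups overlapped the subcutaneous one, 3 of 5 peritoneal and 3 of 6 pleural tumours lying above it. The fold changes of Cd79b were 0.80 (SE 0.52, adjusted p = 0.308) and 0.57 (SE 0.49, adjusted p = 0.458), with 95% confidence intervals of -0.30 to 1.89 and -0.48 to 1.62.

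The inhibitory receptor gene Cd22 had the smallest fold changes against subcutaneous tumours. It ranged from 1.55 to 4.01 TPM in subcutaneous, from 2.04 to 14.9 TPM in peritoneal and from 1.08 to 11.0 TPM in pleural tumours, and the lowest value of all was in pleural tumour 3. Its fold change was 0.48 (SE 0.48, adjusted p = 0.522) for peritoneal and 0.14 (SE 0.46, adjusted p = 0.861) for pleural against subcutaneous tumours. In the fit without peritoneal tumour 7 and pleural tumour 2 these were 0.08 and -0.16, so the pleural difference of Cd22 changed sign.

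In peritoneal tumours Cr2 had the largest ratio of means to subcutaneous tumours of the 8 members, and the largest share of its sum in 1 tumour. Subcutaneous tumours 1 to 5 held 0.109, 0.0439, 0.176, 0.296 and 0.181 TPM of Cr2, and peritoneal tumours 1, 2, 3, 4 and 7 held 0.781, 0.937, 0.431, 3.28 and 19.7 TPM. Pleural tumours ranged from 0.243 to 2.49 TPM with a median of 0.877 TPM. All peritoneal values exceeded all subcutaneous ones, and 4 of 6 pleural values did so. Peritoneal tumour 7 held 78.4% of the peritoneal sum, and the ratio of the peritoneal to the subcutaneous mean was 31.2 with it and 8.42 without it. The fold changes of Cr2 were 1.54 (SE 0.56, adjusted p = 0.0816) and 0.79 (SE 0.54, adjusted p = 0.340). Without peritoneal tumour 7 and pleural tumour 2 Cr2 no longer reached 1 TPM in 5 tumours and was not tested.

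Fcmr, the IgM receptor gene, had a pattern close to that of Ms4a1. It measured 0.122, 0.444, 0.733, 0.262 and 0.362 TPM in subcutaneous tumours 1 to 5, and 1.51, 3.99, 1.15, 1.26 and 17.9 TPM in peritoneal tumours 1, 2, 3, 4 and 7. Pleural tumours held 0.724 to 8.90 TPM with a median of 2.14 TPM. The peritoneal group lay wholly above the subcutaneous one, and 5 of 6 pleural tumours did, tumour 3 falling just under the highest subcutaneous value. The fold changes of Fcmr were 1.58 (SE 0.54, adjusted p = 0.0657) and 1.26 (SE 0.52, adjusted p = 0.113). Once those 2 tumours were left out, peritoneal 7 and pleural 2, they were 1.03 (adjusted p = 0.0326) and 0.94 (adjusted p = 0.0478), both called.

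The transcription factor gene Pax5 and the kinase gene Blk had the lowest peritoneal means. Pax5 measured 0.128, 0.0392, 0.0612, 0.0500 and 0.209 TPM in subcutaneous tumours 1 to 5, against 0.484, 0.847, 0.357, 0.375 and 3.75 TPM in peritoneal tumours 1, 2, 3, 4 and 7 and 0.298 to 3.91 TPM (median 0.451) in pleural tumours. Every peritoneal and pleural value of Pax5 was above every subcutaneous one. Levels this low gave small fold changes on the log2(TPM + 1) scale, 0.79 (SE 0.38, adjusted p = 0.295) and 0.67 (SE 0.36, adjusted p = 0.368). The ratios of the Pax5 means were 11.9 and 10.3, and 5.29 and 4.31 without peritoneal tumour 7 and without pleural tumour 2, respectively. Blk ranged from 0.144 to 0.719 TPM in subcutaneous, 0.231 to 4.96 TPM in peritoneal and 0.391 to 2.80 TPM in pleural tumours, with fold changes of 0.71 (SE 0.38, adjusted p = 0.357) and 0.51 (SE 0.36, adjusted p = 0.535). Its groups overlapped, and subcutaneous tumour 5, at 0.719 TPM, lay above 3 peritoneal tumours.

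**Figure D2:**
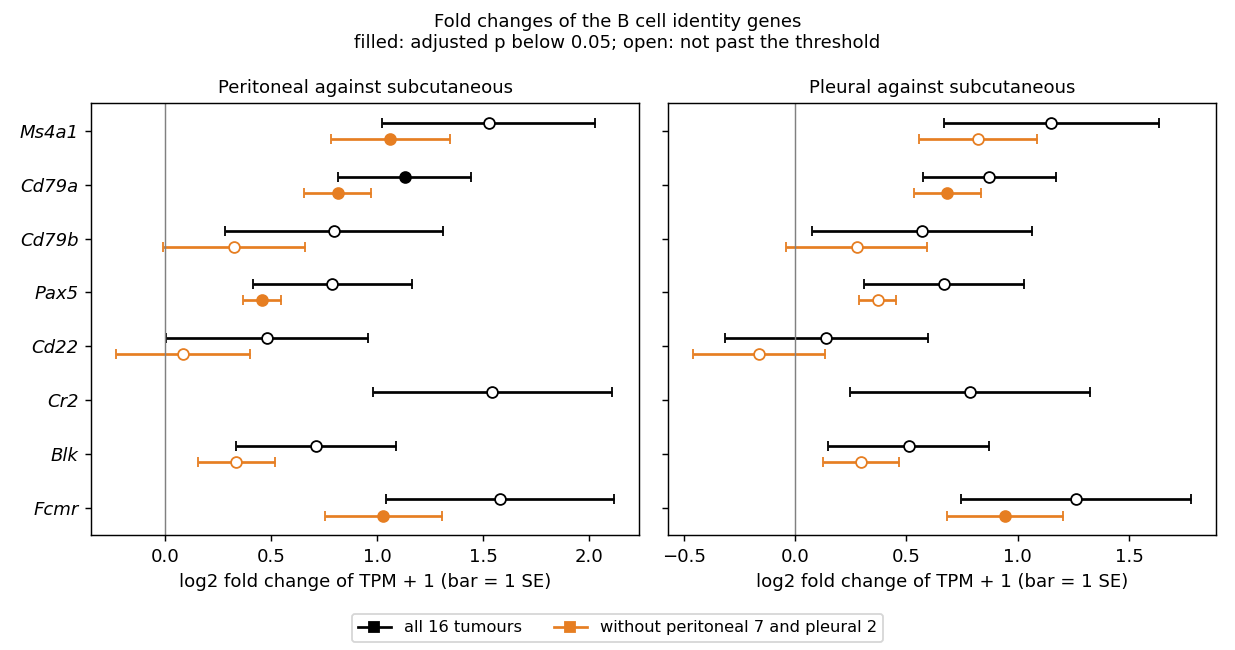
Fold change of each B cell identity gene on the log2(TPM + 1) scale (x axis, bars are 1 SE) in peritoneal and in pleural against subcutaneous tumours, with all 16 tumours and without peritoneal tumour 7 and pleural tumour 2; filled points have an adjusted p below 0.05. Leaving those tumours out lowered the 7 fold changes that could be refitted and shortened their bars; Pax5 and Blk come from the fit without a filter, and Cr2 could not be tested without those tumours.

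Pleural and peritoneal tumours did not differ past the threshold for any member. The 6 tested fold changes, pleural minus peritoneal, ran from -0.76 for Cr2 to -0.22 for Cd79b, with adjusted p = 0.620 and 0.890. The 95% interval was -1.90 to 0.39 for Cr2 and -0.89 to 0.38 for Cd79a, which includes differences of either sign. The sign turned without peritoneal tumour 7 alone for 7 of the 8 members, for example to 0.09 for Ms4a1 and 0.23 for Fcmr, Cr2 being outside the tested genes there.

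The same tumours ranked high for nearly every member. Peritoneal tumour 7 was highest for 7 members and pleural tumour 2 for Pax5. Pleural tumour 2 ranked next for the other members except Cr2, where peritoneal tumour 4 came between. Peritoneal tumour 2 came right after them for the 7 members other than Cr2. Over 16 tumours the 28 pairs of members correlated in log2(TPM + 1) with Pearson's r of 0.681 to 0.985 (median 0.901), and with site means removed the median was 0.928. Without peritoneal tumour 7 and pleural tumour 2 the range widened to 0.121 to 0.968 (median 0.708), with Cd22 and Cr2 as the lowest pair. These correlations are descriptions, and all members share each tumour's RNA and library.

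The proportions between members were not the same at each site. Per unit of Ms4a1 TPM, subcutaneous tumours held a median of 29.2 units of Cd79a, beside 8.18 in peritoneal and 10.0 in pleural tumours. The medians for Cd79b were 13.2, 2.35 and 2.97, and those for Cd22 were 9.73, 1.57 and 2.12, in the same order. The ratios of Fcmr, at 0.768, 1.07 and 1.21, and of Pax5, at 0.248, 0.289 and 0.392, were closer between sites. Those of Blk were 0.963, 0.360 and 0.395, and those of Cr2 were 0.688, 0.660 and 0.502. The subcutaneous ratios rest on Ms4a1 values of only 0.159 to 0.541 TPM. Sorted cancer cells held 8.70 to 12.9 TPM of Cd79a, as given below, so the Cd79a ratios may include signal from outside B cells. The ratios were not tested, and a difference in the make-up of B cells between sites cannot be read from them.

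Sorted cancer cells gave a direct value for one of these genes. Of the 8 members only Cd79a is among the 12461 entries of the sorted cell table, in which every entry reaches at least 1.26 TPM in some library. Cd79a measured 10.7±1.34 TPM in subcutaneous, 11.4±1.05 TPM in peritoneal and 11.0±0.756 TPM in pleural sorted cells (SD, n = 5 each), 8.70 to 12.9 TPM in all 15 libraries. The 3 groups overlapped. The leukocyte gene Ptprc (CD45) reached 12.9 and 7.48 TPM in sorted subcutaneous libraries 1 and 2 and at most 2.05 TPM in the other 13, whereas Cd79a was 11.0 and 12.2 TPM in those 2 libraries. The table of sorted cells has its own normalization, so the closeness of the sorted values to the 7.18 to 8.68 TPM of subcutaneous whole tumours was not tested. Cd79a lies between Rps19 and Arhgef1 on chromosome 7. Of the 50-base stretches of its transcript, the length of the reads, 8.31% also occur in transcripts of Gm32220. Stretches shared with any other gene made up 7.84% for Cd22, 7.02% for Pax5 and 1.21% for Ms4a1. They made up 0% for Cd79b, Cr2, Blk and Fcmr. The part of shared reads in the values of Cd79a and the other members was not tested.

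**Figure D3:**
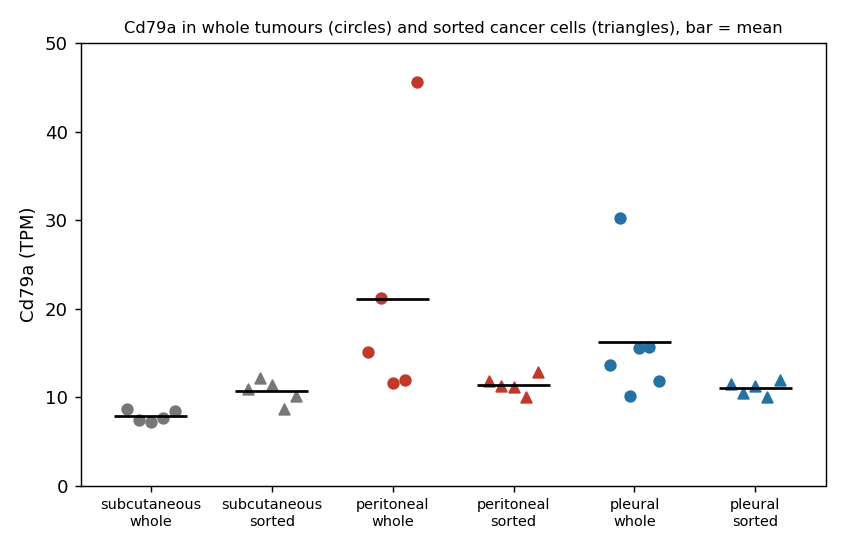
Cd79a level (TPM, linear axis from 0) in whole tumours (circles) and in sorted cancer cells (triangles) by site; each point is 1 library and bars are means. Sorted cells lie at 8.70 to 12.9 TPM at all sites, while whole tumours reach 45.6 TPM; the tables were normalized separately.

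The 10 tested genes with the highest correlation to the mean z-score of the members were Fcer2a, Ighd, Bank1, H2-Ob, Fcrl1, Cxcr5, Iglv3, Iglc3, Cmah and Pou2af1. Fcer2a, the low-affinity IgE receptor CD23 of mature B cells, had Pearson's r = 0.977 and Spearman's rho = 0.965 over 16 tumours, and r = 0.926 without peritoneal tumour 7 and pleural tumour 2. It reached 10.3 TPM in peritoneal tumour 7 and 3.57 TPM in pleural tumour 2, against a subcutaneous mean of 0.353 TPM. Ighd, the constant region of IgD on naive B cells, had r = 0.972 and rho = 0.953, with 19.7 and 9.26 TPM in the same 2 tumours and a subcutaneous mean of 0.875 TPM. Pou2af1, a coactivator of octamer factors in B cells, had the lowest r of the 10, 0.926, but the highest rho, 0.971, and kept r = 0.964 without those tumours.

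Of 24 other B lineage genes 21 were tested. In peritoneal against subcutaneous tumours Ighm, Bank1 and Pou2af1 rose, Cd72 fell, 17 of the 21 fold changes were positive, and their median was 0.57. Bank1 and Pou2af1 stayed below 1 TPM in every subcutaneous tumour, so they too passed the filter only through the other sites. Ighm, the IgM heavy chain, rose from 46.8 to 267 TPM by a fold change of 2.18 (SE 0.56, adjusted p = 0.0226), a call lost without subcutaneous tumour 2 or peritoneal tumour 2 (adjusted p up to 0.0616). Pou2af1 rose from 0.200 to 5.05 TPM (1.99, SE 0.51, adjusted p = 0.0212), with adjusted p = 0.0578 without peritoneal tumour 2. The scaffold gene Bank1 rose from 0.376 to 2.60 TPM (1.18, SE 0.36, adjusted p = 0.0456) and lost its call without any one of 11 tumours (subcutaneous 1 to 5, peritoneal 1, 2 and 7, pleural 1, 4 and 5, adjusted p up to 0.0963). Cd72, an inhibitory coreceptor gene, fell from 93.4 to 50.8 TPM (-0.86, SE 0.16, adjusted p = 0.00476). Its subcutaneous level stood beside an Ms4a1 mean of only 0.291 TPM. In sorted cells Cd72 was highest in subcutaneous libraries 1 and 2 (20.4 and 17.1 TPM), where the macrophage gene C1qa was 266 and 174 TPM. Which cells held Cd72 was not tested. In pleural against subcutaneous tumours limma called 0 of the 21, 5 had an unadjusted p below 0.05, and 16 fold changes were positive (median 0.46).

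Among genes downstream of the receptor, few were called. Of 16 signalling genes, which other leukocytes share, 0 were called as higher and 2 as lower in peritoneal tumours (Vav1 and Pik3ap1). Their median was -0.08, and 0 to 3 fell as single tumours were left out. At an unadjusted p below 0.05 with limma, 2 were higher and 3 lower in peritoneal tumours. In pleural tumours limma called 0 of 16, with 0 at an unadjusted p below 0.05. Of 6 B-1 cell genes 0 were called in either comparison, with 1 in pleural and 2 in peritoneal tumours at an unadjusted p below 0.05, all lower. Of 8 germinal centre genes 5 were tested, and Bcl6 was called as lower in peritoneal tumours (12.2 against 15.5 TPM), a direction that turned to 0.07 when libraries were scaled to pan-leukocyte genes. This call was lost without any one of subcutaneous tumours 3, 4 and 5, peritoneal tumours 1, 2 and 4 and pleural tumours 4 and 7 (adjusted p up to 0.108). Bcl6 was also called as higher in pleural than in peritoneal tumours (0.57, adjusted p = 0.0455), a call lost without any one of 13 of the 16 tumours, all but subcutaneous 1 and 2 and pleural 3 (adjusted p up to 0.173). Sorted cancer cells held Bcl6 as well, at means of 17.8, 10.5 and 18.4 TPM (subcutaneous, peritoneal, pleural). Other B-1 and germinal centre genes were there too, with site means of 167 to 213 TPM (Cd9) and 11.0 to 17.1 TPM (S1pr2). The part of B cells in the values of these lists was not tested. Of the 6 lymphocyte precursor genes none reached the level for testing, and they summed to at most 2.56 TPM.

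Of 10 plasma cell genes 9 were tested, and 3 rose and 1 fell in each comparison with subcutaneous tumours. Jchain, the joining chain of secreted IgM and IgA, rose from 3.85 TPM in subcutaneous to 79.1 TPM in peritoneal tumours (3.70, SE 0.59, adjusted p = 0.00151) and 34.4 TPM in pleural tumours (2.68, SE 0.56, adjusted p = 0.00903). Igkc, the kappa light chain, rose from 40.3 to 860 TPM (4.06, SE 0.65, adjusted p = 0.00154) and 383 TPM (3.03, SE 0.62, adjusted p = 0.00818). Mzb1, a chaperone of antibody secretion, also rose in peritoneal tumours (2.12, SE 0.60, adjusted p = 0.0334), a call lost without any one of subcutaneous tumours 1 to 5 and peritoneal tumours 2 and 7 (adjusted p up to 0.0823). Xbp1, a secretion regulator active in many cells, rose in pleural tumours (0.28, SE 0.08, adjusted p = 0.0306), a call lost without any one of subcutaneous tumours 2 and 3 and pleural tumours 1, 2 and 4 (adjusted p up to 0.096). Sdc1, a plasma cell surface gene that epithelial and tumour cells express too, fell in both, by 0.71 (adjusted p = 0.000109) in peritoneal and by 0.81 (adjusted p = 1.33e-05) in pleural tumours. Peritoneal tumour 2 held the highest Igkc (1964 TPM), Jchain (166 TPM) and Ighm (522 TPM) of all tumours while its Ms4a1 was 3.74 TPM. Peritoneal tumour 7, with 12.4 TPM of Ms4a1, held 1288 TPM of Igkc and 125 TPM of Jchain.

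**Figure D4:**
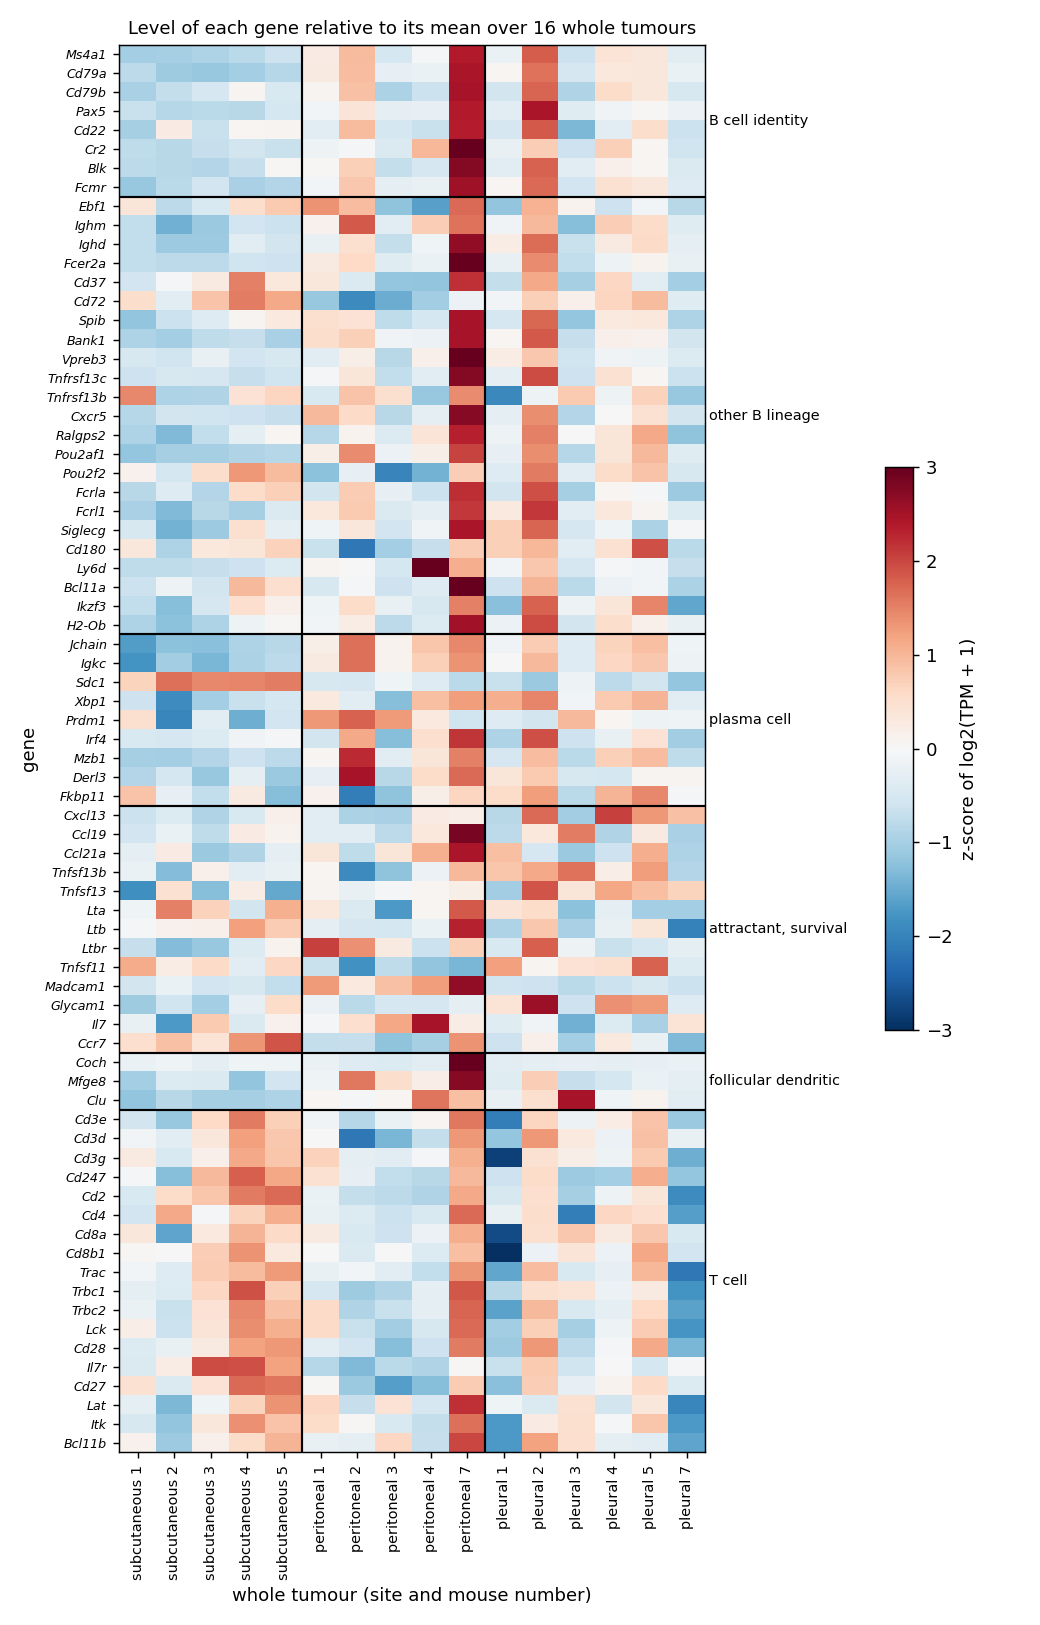
Levels of genes that reached 1 TPM in a whole tumour, as z-scores of log2(TPM + 1) over 16 tumours (columns, grouped by site), for the B cell identity genes and 5 other lists; red is above and blue below the mean of the gene. The members and most other B lineage genes are highest in peritoneal tumour 7 or pleural tumour 2, while Jchain, Igkc and Mzb1 are highest in peritoneal tumour 2.

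Genes of lymphoid structures were at unlike levels in the 2 tumours richest in B cell transcripts. Coch, a gene of follicular dendritic cells, measured 15.2 TPM in peritoneal tumour 7 and at most 0.207 TPM in the other 15 tumours. The chemokine genes Ccl21a and Ccl19, which draw lymphocytes into lymphoid tissue, were at 86.3 and 26.0 TPM in peritoneal tumour 7 and at most 15.1 and 8.21 TPM elsewhere. Pleural tumour 2 had 1.11 TPM of Ccl21a, 2.42 TPM of Ccl19 and 0.0659 TPM of Coch. Cxcl13, the attractant of B cells to follicles, was 89.7 TPM in peritoneal tumour 7 and 183 TPM in pleural tumour 2, and its highest value, 218 TPM, was in pleural tumour 4, where Ms4a1 was 2.26 TPM. Site means of Cxcl13 were 66.1, 70.3 and 130 TPM (subcutaneous, peritoneal, pleural). Of 14 attractant and survival genes 11 were tested, and 0 were called as higher. At an unadjusted p below 0.05 with limma, 3 were higher and 1 lower in pleural against subcutaneous tumours. In peritoneal tumours 3 were higher and 2 lower at that level. Ccr7 fell at both sites and Tnfsf11 fell in peritoneal tumours, the latter turning to 0.13 when libraries were scaled to pan-leukocyte genes. Of 3 follicular dendritic cell genes 2 were tested, Clu being called as higher at both sites and Mfge8 in peritoneal tumours. Sorted cancer cells held Mfge8 at means of 101, 117 and 106 TPM (subcutaneous, peritoneal, pleural) and Clu at 18.0, 30.9 and 23.1 TPM. In whole tumours Clu was highest in pleural tumour 3 (500 TPM) and peritoneal tumour 4 (199 TPM). Each Clu call was lost without any one of 10 tumours (adjusted p up to 0.0723 in peritoneal and 0.0904 in pleural tumours). As single tumours were left out, 0 to 1 of the attractant and survival genes fell in pleural and 0 to 2 in peritoneal tumours. Called as higher were 0 to 1 of them in pleural and 0 in peritoneal tumours. Of the follicular dendritic cell genes 0 to 1 rose in pleural and 0 to 2 in peritoneal tumours. The part of these genes' cells in the member values was not tested.

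Markers of other cell types were counted and summed in the same tumours. T cell genes summed to 203 to 335 TPM in subcutaneous, 192 to 343 TPM in peritoneal and 153 to 282 TPM in pleural tumours. The highest of these sums was that of peritoneal tumour 7, against 192 to 240 TPM in the other peritoneal tumours, and 10 of the 18 T cell genes had their highest value there. Of 18 tested 0 rose, and 1 fell in peritoneal tumours. Pan-leukocyte genes summed to 1334 to 1841, 987 to 1648 and 1081 to 1729 TPM, in the order subcutaneous, peritoneal, pleural, with 2 of 10 lower in peritoneal tumours. Macrophage genes summed to 2299 to 2928, 1281 to 2173 and 1608 to 3260 TPM, with 5 of 8 lower in peritoneal and 2 in pleural tumours. Of 5 plasmacytoid dendritic cell genes Siglech and Klk1 fell at both sites. The pleural call of Siglech was lost without any one of subcutaneous tumours 2, 4 and 5 (adjusted p up to 0.056), and the peritoneal call of Klk1 without any one of subcutaneous tumours 2, 4 and 5 and peritoneal tumours 1, 2 and 3 (adjusted p up to 0.0813). As single tumours were left out, 2 to 5 macrophage, 1 to 7 pan-leukocyte and 0 to 2 T cell genes were lower in peritoneal tumours. Of 8 tested mesothelial genes 7 were called as higher in peritoneal and 6 in pleural tumours, and their sums were 194 to 242, 215 to 276 and 199 to 304 TPM. Of 8 tested adipocyte genes, 2 lymphatic endothelial genes and 1 gene of pancreas and liver, 0 were called by limma, and no lung epithelial gene could be tested, their sum being at most 1.64 TPM. The part of these cells in the member values was not tested.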

How the data were processed

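Reads of 50 bases were quantified by the authors with kallisto on GRCm39, per the submitters' processing notes, and the deposited values are TPM per gene. Of their steps, not given in the sources used here were tool versions, annotation release, any filter and how transcripts were summed. Each whole tumour sums to 1000000 TPM, and 14148 to 14880 genes were at 1 TPM or more in each. TPM keeps no read numbers, so depth and the precision it gives are unknown.

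The test was limma (3.58.1, run in R 4.3.3) on log2(TPM + 1), with eBayes trend and all 3 sites fitted jointly. A gene entered if 5 or more whole tumours had 1 TPM or more, and p values were adjusted over all of them. The script was tested on simulated data. The tables were not tested against each other. Tumours came from different mice, so p values measure the spread between mice.

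The members and the 17 other gene lists were chosen with earlier results of these data known. Named genes were the members, called list genes, a fixed set, and the 10 genes most like the members by Pearson's r. The other lists hold markers of B lineage, B-1, germinal centre, plasma, precursor, follicular dendritic, T, plasmacytoid dendritic, macrophage, adipocyte, mesothelial, lymphatic, lung epithelial, and pancreas and liver cells, pan-leukocyte genes, receptor signalling genes, and attractant and survival genes. Of the sorted cell entries, 17 carry dates in place of symbols and were left out. Peritoneal tumours are numbered by the mouse in the labels. Alternatives were a pseudocount of 0.1 TPM, no filter, median-of-ratios, quantile and pan-leukocyte scaling, a fit of only the 2 sites compared, arrayWeights, the replicate number as a block, and leaving out each tumour. A fit without peritoneal tumour 7 and pleural tumour 2 was added after the data were seen. Results of 2 listed genes are not reported here.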

Additional observations from a re-analysis of the deposited data

Results flagged for a closer look

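Each site's values of the 8 members and of 9 fixed genes were checked for a tumour far from the rest of its group, 51 groups in all, of which 17 were marked, 14 of them among the 24 groups of the members. Chance marks about 1 in 20 groups if values are normally distributed. TPM values with a long upper tail are marked more often, so that rate is too low here. The genes share tumours, so the marks are not independent. Peritoneal tumour 7 lay far above the other peritoneal tumours in Ms4a1 (12.4 TPM), Cd79a (45.6 TPM), Cd79b (25.2 TPM), Pax5 (3.75 TPM), Cr2 (19.7 TPM), Blk (4.96 TPM) and Fcmr (17.9 TPM). It was also apart in Ighd (19.7 TPM) and Ptprc (61.2 TPM). Pleural tumour 2 lay far above the other pleural tumours in Ms4a1 (7.92 TPM), Cd79a (30.3 TPM), Cd79b (15.8 TPM), Pax5 (3.91 TPM), Blk (2.80 TPM) and Fcmr (8.90 TPM), and in Ighd (9.26 TPM). Cr2 did not stand apart in pleural tumour 2, since pleural tumour 4 held 2.40 TPM. Among subcutaneous tumours, tumour 5 was apart in Blk (0.719 TPM).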

How the results depend on the processing

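The number of members called moved with most choices. In pleural against subcutaneous tumours it was 0, and became 2 with a pseudocount of 0.1 TPM, 3 with scaling to pan-leukocyte genes, 1 in the fit of only the 2 sites compared, 1 with arrayWeights, 2 without peritoneal tumour 7 and pleural tumour 2 together, and 0 to 2 when single tumours were left out. In peritoneal against subcutaneous tumours it was 1, and became 4, 5, 1, 3 and 3 under those settings, 0 without the filter, and 0 to 3 when single tumours were left out. With the replicate number as a block it was 0 in both, and all called genes fell from 1927 to 849 and from 1831 to 656. The share of all tested genes called moved too, from 12.8% in pleural and 12.2% in peritoneal against subcutaneous tumours. In that order it was 13.3% and 12.8% with a pseudocount of 0.1 TPM, and 18.1% and 16.1% with arrayWeights. It was 3.12% and 3.2% without the filter, and 6.2% and 10.2% without peritoneal tumour 7 and pleural tumour 2. The fit of only the 2 sites compared called 1408 and 1887 genes. The labels name different mice at each site, and 4 of 14 same-numbered pairs had a correlation of deviations over 0.1 (-0.377 to 0.256). Pairs with different numbers were not computed, so this check cannot tell whether a number also marks shared handling. Scaling to pan-leukocyte genes brought the median fold change of all genes from 0.07 in both to 0.28 and 0.46 and called 9.48% and 61.3% of them. Higher genes were 73.4% and 70.1% of all calls, but 41.4% and 42.4% with median-of-ratios scaling and 48.4% and 48.2% with quantile normalization. Bcl6 and Tnfsf11 in peritoneal against subcutaneous tumours turned to 0.071 and 0.13 with pan-leukocyte scaling. Cd22 in pleural against subcutaneous tumours turned to -0.16 without peritoneal tumour 7 and pleural tumour 2, and ran from -0.16 to 0.34 over single tumours left out. In pleural against peritoneal tumours that range was -0.70 to 0.091 for Ms4a1, -0.45 to 0.059 for Cd79a, -0.52 to 0.25 for Cd79b, -0.42 to 0.21 for Pax5, -0.64 to 0.057 for Cd22, -0.41 to 0.18 for Blk and -0.64 to 0.23 for Fcmr. The causes of these changes were not tested. The unknown depth limits most the members under 1 TPM.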

Other observations

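Ly6d, listed among the B lineage genes, was highest in another tumour than the members. It was 51.3 TPM in peritoneal tumour 4, beside 5.52 TPM in peritoneal tumour 7 and 3.82 TPM in pleural tumour 2. The same tumour held 29.5 TPM of the epithelial and mesothelial keratin gene Krt19, against at most 7.28 TPM in the other 15 tumours. Cr2 in that tumour was 3.28 TPM while Ms4a1 was 1.30 TPM, a ratio of 2.53 and the highest of the 5 peritoneal tumours. Madcam1, an adhesion gene of gut and mucosal vessels, was 0.657 to 3.35 TPM in peritoneal tumours and at most 0.365 TPM in the subcutaneous and pleural ones.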
